A study of Drosophila melanogaster with 3 samples.

Results

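The regions described here are divergent promoters that hold a DNA replication-related element (DRE) and were recovered with the tagged transcription factor Doc3. A divergent promoter is a stretch of DNA with the starts of protein-coding genes on both strands, so that transcription leaves it in both directions. A peak was counted when protein-coding transcription start sites lay within 500 bp of its summit on both strands and an exact copy of the 8-base palindrome TATCGATA was centred within 250 bp of the summit. The rule found 435 member peaks in 369 separate regions, out of 2793 peaks of the conservative list on 6 chromosome sequences. The remaining peaks were 653 at divergent promoters without a DRE, 537 at promoters with starts on a single strand (unidirectional) with a DRE, 909 at unidirectional promoters without one, and 259 with no coding start within 500 bp.

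The samples were whole Drosophila melanogaster embryos aged 0 to 24 hours, of a transgenic strain that expresses Doc3 joined to eGFP, an enhanced green fluorescent protein. Chromatin was sonicated, immunoprecipitated with an antibody against GFP and sequenced (ChIP-seq) in 3 biological replicates, which form a single group. Promoter and cell type of the fusion protein's expression are not given in the labels, and whole embryos mix all tissues. The labels' antibody entry names Doc3, while their description states that the antibody was against GFP, which is followed here. A possible control experiment named in the labels was not analysed here, so enrichment over a mock or input sample was not measured. The deposited data are peak lists on the dm6 build, and read depth is unknown.

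Doc3 is a T-box protein of the Dorsocross group, known for its part in forming the amnioserosa and the heart. The DRE is the recognition sequence of DREF, a zinc finger protein first studied at genes for DNA replication, and the element is one of the common core promoter motifs of broadly expressed fly genes. In the compact fly genome such genes often stand head to head with short intervals between their starts. DREF itself was not measured in these samples.

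The whole intervals between the opposing starts of the 3 strongest members whose DRE lies between starts 60 to 300 bp apart are shown, because they hold the element, the summit and both starts together. Members on 1 of the chromosome arms were left out of all sequences printed. Each runs 5′ to 3′ on the forward strand of dm6, from the base after the first transcribed base of the left gene to the base before that of the right gene, and capitals mark the DRE. The annotation places no coding exon inside them, and the exon of an antisense RNA, asRNA:CR45016, covers the right part of the interval of MED7 and Cap-H2.
janA/Sry-alpha, chr3R:30039534-30039718: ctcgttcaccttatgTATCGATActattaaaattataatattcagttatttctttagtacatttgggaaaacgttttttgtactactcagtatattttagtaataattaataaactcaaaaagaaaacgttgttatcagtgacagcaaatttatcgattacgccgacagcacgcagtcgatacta
XNP/CG5116, chr3R:25482835-25483097: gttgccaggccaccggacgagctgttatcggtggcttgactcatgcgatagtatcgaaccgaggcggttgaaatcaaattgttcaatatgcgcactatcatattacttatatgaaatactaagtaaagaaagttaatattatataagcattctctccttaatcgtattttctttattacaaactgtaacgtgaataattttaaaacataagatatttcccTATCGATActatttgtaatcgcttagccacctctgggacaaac
MED7/Cap-H2, chr3R:10761033-10761309: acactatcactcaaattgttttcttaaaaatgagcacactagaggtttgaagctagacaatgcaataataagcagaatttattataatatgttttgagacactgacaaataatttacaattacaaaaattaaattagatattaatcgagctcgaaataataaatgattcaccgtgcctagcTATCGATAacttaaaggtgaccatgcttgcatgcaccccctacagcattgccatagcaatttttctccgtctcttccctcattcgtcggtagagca
In all 3 intervals the DRE lies off the middle, and the summit lies elsewhere. At janA and Sry-alpha the centre of the DRE was 19.5 bp upstream of the janA start and the summit was 133.5 bp away from it, close to Sry-alpha. At XNP and CG5116 the summit lay near the middle of the interval, 127 bp from the XNP start and 137 bp from the CG5116 start. At MED7 and Cap-H2 the summit was 95 bp from the MED7 start, and the DRE was 90.5 bp from the summit and 92.5 bp upstream of the Cap-H2 start, farther from a start than in most members.

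The surroundings of the element in the next members by signal, 28 bases centred on the DRE, are shown so that the flanks of the element can be compared. Windows that reach past a start hold part of a 5′ untranslated region.
eff/jvl, chr3R:14741334-14741361: tccgttgtgcTATCGATAgtttttggga
mth/Ptpmeg, chr3L:347417-347444: ctagaggttaTATCGATActatcgtgcg
Pex23/SCCRO4, chr3L:20302419-20302446: gtgttaaatgTATCGATActatcgcgag
Vps36/Liprin-beta, chr3L:13513342-13513369: gttcgctgacTATCGATAagtggctggg
mRpL39/Prosbeta2, chr3L:14999931-14999958: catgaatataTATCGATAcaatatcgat
The bases around the element differ from promoter to promoter. Since the element is a palindrome, both neighbouring bases can be read outwards from it. Over the 375 distinct copies nearest to a member summit, the neighbouring base was G on 36.0% of the 750 sides, A on 27.1%, T on 24.9% and C on 12.0%. Over all 4019 copies on the 6 chromosome sequences, the neighbour was G on 26.9% of sides, A on 27.1%, T on 35.0% and C on 11.0%. Members had more G and less T beside the element than the genome's copies, a difference given as a description.

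Windows of 50 bases on each side of the summit are shown for the 2 strongest members in which the whole DRE falls inside such a window and no coding exon does.
TrpRS/Vps16A, chr3R:9266905-9267005: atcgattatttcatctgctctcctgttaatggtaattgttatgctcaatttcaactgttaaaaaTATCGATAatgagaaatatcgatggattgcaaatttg
Fibp/Deaf1, chr3L:19818066-19818166: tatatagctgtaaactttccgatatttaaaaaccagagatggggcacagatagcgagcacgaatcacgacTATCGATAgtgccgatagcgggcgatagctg
TrpRS encodes tryptophanyl-tRNA synthetase and Vps16A a subunit of endosomal tethering complexes. Deaf1 encodes a transcription factor. In both windows the DRE is accompanied by shorter stretches of the same letters (cgat), which the exact 8-base search does not count.

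The strongest member was the promoter of janA and Sry-alpha. Its signal, the strength that the authors' peak caller gave the region on an unstated scale, was 1119 in the conservative list, which put it 7 in rank among all 2793 peaks. In the ranked lists of single replicates its signal was 210.4 in replicate 1, 451 in replicate 2 and 438 in replicate 3. janA encodes a relative of the mammalian phosphohistidine phosphatase, Sry-alpha acts when the early embryo forms its cells, and the zinc finger gene Sry-beta shares the same annotated start. Replicate 1 had the lowest value here and at each of the other 14 regions plotted, and scales of lists made from different reads cannot be compared.

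Hsepi, for an enzyme that modifies heparan sulfate, and PGAP3, for an enzyme of GPI anchors, share the second promoter on 2R from 6673324 to 6673680, with signals of 206, 397 and 409 in replicates 1, 2 and 3. The third, on 2R from 6661938 to 6662312, serves Dpit47, a co-chaperone of Hsp90, and Adf1, a DNA-binding activator, with 191, 402 and 312. The fourth was that of XNP, the fly relative of the chromatin remodeller ATRX, and CG5116, with 150.2, 422 and 304. All 3 were overlapped by peaks in the thresholded list of every replicate. The promoter of MED7, a Mediator subunit, and Cap-H2, a condensin subunit, had 201, 366 and 317, and that of eff, a ubiquitin-conjugating enzyme, and jvl had 151, 341 and 278.

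**Figure D1:**
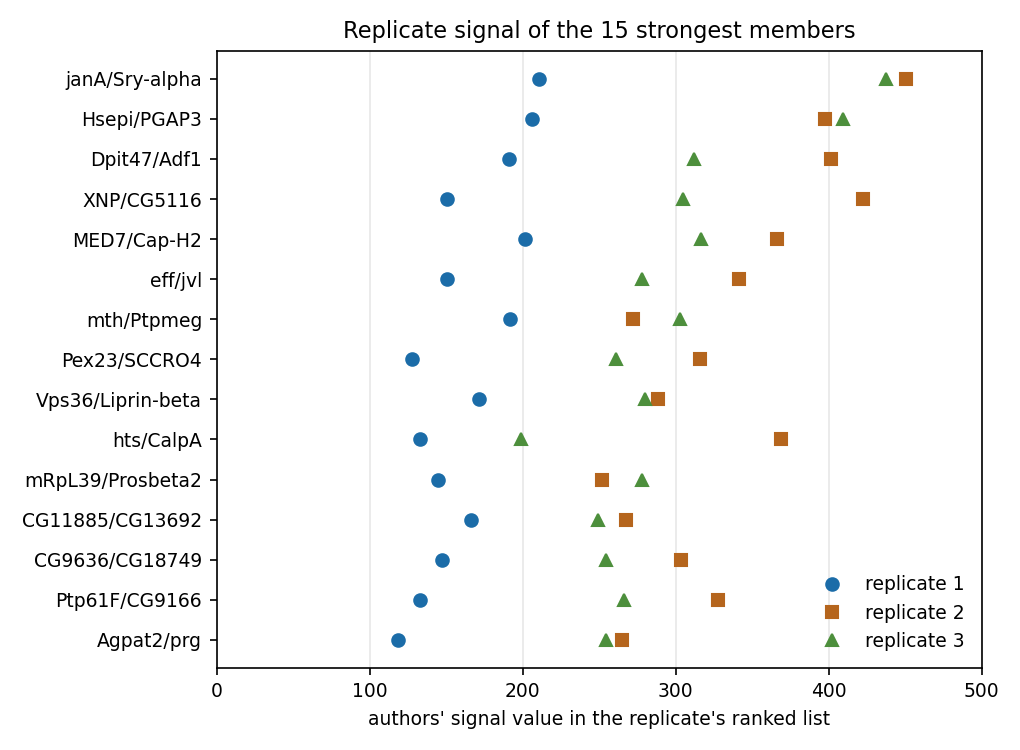
Signal in the ranked list of each replicate (horizontal axis, authors' scale) for the 15 member regions with the highest signal in the conservative list, strongest at the top. Circles are replicate 1, squares replicate 2 and triangles replicate 3. Replicate 1 had the lowest value in all 15 regions, and janA/Sry-alpha was highest in each replicate.

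The other regions among the 15 strongest served mth, a receptor known from lifespan studies, and the tyrosine phosphatase Ptpmeg, the peroxisome gene Pex23 and SCCRO4, the ESCRT subunit Vps36 and Liprin-beta, adducin (hts) and calpain A (CalpA), mRpL39 and the proteasome subunit Prosbeta2, CG11885 and CG13692, CG9636 and CG18749, the phosphatase Ptp61F and CG9166, and Agpat2 and prg. All 15 were overlapped in every replicate. In all 15 the genes stood head to head, and in 14 the summit lay between the starts. The DRE lay between the starts in 12 of them. Its median distance from the summit was 92.5 bp, from 20.5 bp at hts/CalpA to 157.5 bp at Pex23/SCCRO4, and only 2 of the 15 had it within 50 bp. Of the 25 strongest peaks of the whole conservative list 5 were members, and of the 100 strongest 21 were, where members made up 15.6% of the list.

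Whether a divergent promoter with a DRE was likely to carry a peak was asked from the annotation, without starting from peaks. Pairs of opposing coding starts 1 to 500 bp apart were taken, each the other's nearest, and a pair had a peak when a summit lay within 250 bp of the midpoint between its starts. In the conservative list 339 of 417 pairs with a DRE within 250 bp of the midpoint had a peak (81.3%, 95% Wilson interval 77.3 to 84.7%), against 437 of 1425 pairs without one (30.7%, 28.3 to 33.1%), where 42.1% of all 1842 pairs did. The DRE pairs were therefore far more often occupied than the pairs without one. Nothing about signal entered this choice of promoters.

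The same held in each replicate list. With a DRE, replicate 1 had a peak at 65.5% of pairs, replicate 2 at 74.8% and replicate 3 at 64.3%, on average 68.2 ± 5.78% (SD, n = 3). Without a DRE the shares were 22.6%, 27.2% and 21.0%, on average 23.6 ± 3.24% (SD, n = 3), where 32.3%, 38.0% and 30.8% of all pairs had a peak in these replicates. The lowest replicate with a DRE stood above the highest without one. The difference was 42.9, 47.6 and 43.3 percentage points, 44.6 ± 2.61 on average, with an exact two-sided sign-flip permutation p = 0.25, the smallest that 3 replicates allow, and a Benjamini-Hochberg adjusted p = 0.35 over the 7 comparisons made.

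**Figure D2:**
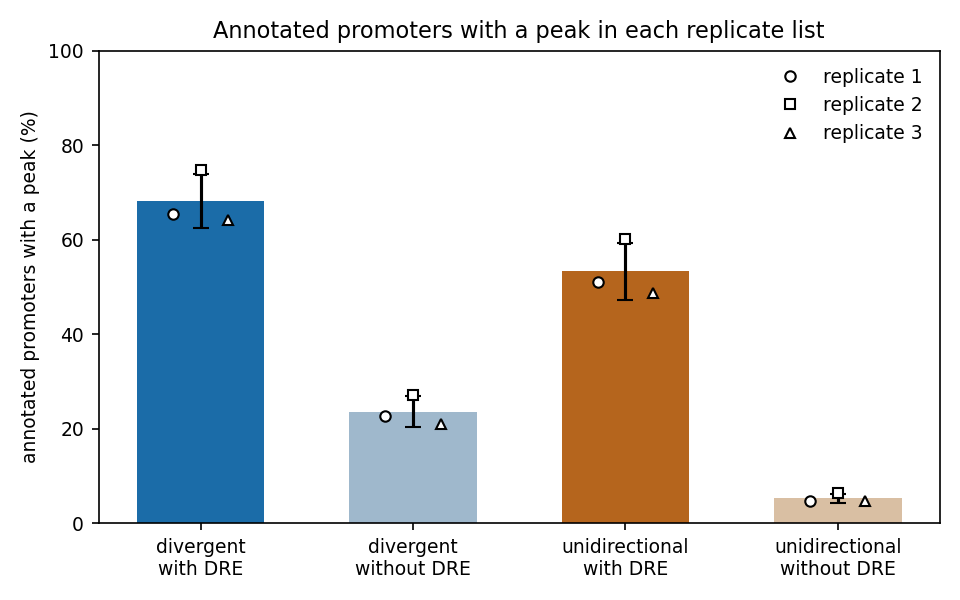
Share of annotated promoters with a peak in each replicate's thresholded list (vertical axis, percent), for 417 divergent pairs with a DRE, 1425 without, 679 unidirectional starts with a DRE and 9301 without. Bars are means of 3 replicates, error bars SD and points the replicates. Divergent pairs with a DRE lie between 64.3% and 74.8%, above those without a DRE at 21.0 to 27.2%.

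The difference was present at every gap between the starts. Pairs with a DRE had a peak in 83.0% of cases at gaps of up to 100 bp, 85.2% at wider gaps up to 200 bp, 80.6% up to 300 bp, 81.1% up to 400 bp and 76.3% up to 500 bp. Pairs without a DRE ran from 23.3% in the widest bin to 33.9% in the narrowest. Intervals of the bins with a DRE overlapped each other, and in each bin the interval with a DRE lay above that without. On each of the 5 arms that have such pairs with a DRE, between 78.0% (2L) and 83.7% (3R) had a peak, and chromosome 4 had none of these pairs.

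Unidirectional promoters with a DRE were occupied less often than divergent ones with it. A conservative summit lay within 250 bp of the start at 423 of 679 such promoters (62.3%, interval 58.6 to 65.9%), where 10.5% of all 9980 unidirectional promoters had one, and at 628 of 9301 unidirectional promoters without a DRE (6.75%). In the replicates the unidirectional promoters with a DRE averaged 53.3 ± 6.10% (SD, n = 3). The divergent minus unidirectional difference among DRE promoters was 14.5, 14.6 and 15.5 percentage points, 14.9 ± 0.563 on average (exact sign-flip permutation p = 0.25, adjusted p = 0.35). A divergent pair was judged around its midpoint and a single start around itself, and a pair counts a peak from either gene, so the frames differ. Each unidirectional gene was also judged at its outermost coding start only, while pairs were drawn from all coding starts. A peak at another start of a unidirectional gene, farther than 250 bp away, was therefore not counted for it.

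Among the 417 pairs with a DRE, 78 had no conservative peak, and 26 of these had a peak in at least 1 replicate list. The remaining 52 had no peak in any of the 4 lists. In them the DRE lay a median of 18 bp from the nearest start and within 50 bp of one in 45 of 52 (86.5%, interval 74.7 to 93.3%), and 4 held more than 1 copy. The 339 pairs with a conservative peak had a median distance of 29.5 bp, with 254 inside 50 bp (74.9%, 70.1 to 79.2%), and 49 held more than 1 copy (14.5%, 11.1 to 18.6%). Of all 78 pairs without a conservative peak, 71 had the DRE within 50 bp of a start (91.0%, 82.6 to 95.6%). That interval lay above the interval of the pairs with a conservative peak, which is given as a description. An exact element close to a start was thus present in unoccupied pairs as well. The pairs without a peak whose DRE lies nearest the midpoint are shown for comparison with the occupied ones above, again with 28 bases centred on the element.
CG3618/Pka-R1, chr3L:20816091-20816118: aagtgaaaccTATCGATAtgaacgtgac
mRpS14/Naa15-16, chrX:19479947-19479974: cgcgcgggacTATCGATAggcaacagct
CG7156/14-3-3epsilon, chr3R:18242343-18242370: gtatcataagTATCGATAgtctgcagtg
Pka-R1 encodes a regulatory subunit of protein kinase A, mRpS14 a protein of the mitochondrial ribosome and 14-3-3epsilon an adaptor protein that binds phosphorylated partners. The search asked for an exact copy, so the element in these promoters has the same letters as that of janA or MED7 by construction.

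How often the member peaks recurred was compared with other peaks of the conservative list. A peak recurred when it shared at least 1 bp with the thresholded list of a replicate. The overlapping replicate peak may belong to a neighbouring summit, above all for weak members that share bases with a stronger peak. Replicate 1 overlapped 334 of the 435 members (76.8%), replicate 2 overlapped 385 (88.5%) and replicate 3 overlapped 341 (78.4%), where 66.6%, 79.7% and 64.2% of all conservative peaks were overlapped. Members stood above the whole list in each replicate. The divergent peaks without a DRE had 69.7%, 79.0% and 66.9%, and the unidirectional peaks with a DRE had 79.7%, 91.1% and 75%.

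Members minus divergent peaks without a DRE came to 7.10, 9.49 and 11.5 percentage points, 9.35 ± 2.19 on average (SD, n = 3, exact two-sided sign-flip permutation p = 0.25, adjusted p = 0.35). Every replicate showed the same direction. Members minus unidirectional peaks with a DRE came to -2.92, -2.56 and 3.34 points, -0.71 ± 3.52 on average, with an exact permutation p = 1 and adjusted p = 1. The replicates differed in direction here, and an average difference of either sign lay within their spread. The conservative list was made from the same samples, so these shares describe recurrence within the study and are no independent check.

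All 3 replicates overlapped 291 of 435 members (66.9%, interval 62.3 to 71.2%), against 55.9% (52.1 to 59.7%) of divergent peaks without a DRE and 67.0% (63.0 to 70.9%) of unidirectional peaks with one, where 53.6% of the whole list was. Exactly 2 replicates overlapped 71 members, exactly 1 overlapped 45, and 28 members were overlapped in none. The strongest of those 28 lay between CG46312 and exd, the gene for a homeodomain cofactor of Hox proteins, on X from 15992120 to 15992603, with signals of 19.9, 78.8 and 50.4. The next were JhI-21/RpL7-like with 21.1, 68.3 and 28.3 and CG45089/p115 with 29.0, 57.4 and 32.3. All 3 had regions in each ranked list, at values far under those of the strongest members.

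By signal, members and unidirectional peaks with a DRE again stood above divergent peaks without one. The median signal of the members was 229 in the conservative list, with values from 3.15 to 1119, against 172 for divergent peaks without a DRE and 221 for unidirectional peaks with one. Above the median of the list, 170.4, lay 280 members (64.4%, interval 59.8 to 68.7%), 50.4% of divergent peaks without a DRE and 61.6% of unidirectional peaks with one, where 50% of all peaks did. Within the ranked lists, 61.4%, 63.0% and 66.2% of members lay above the median of replicates 1, 2 and 3, 63.5 ± 2.46% on average, against 51.8%, 49.9% and 49.9% of divergent peaks without a DRE. The members' lowest replicate was above the highest of the divergent peaks without the element.

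The difference in that share was 13.0 ± 3.33 percentage points against divergent peaks without a DRE (9.62, 13.1 and 16.3 in the replicates, exact sign-flip permutation p = 0.25, adjusted p = 0.35). Against unidirectional peaks with a DRE it was 1.20 ± 4.52 points (-2.49, -0.14 and 6.24, exact permutation p = 1, adjusted p = 1), and its direction differed between replicates. By recurrence and by signal the members differed more from divergent peaks that lack the element than from unidirectional peaks that have it, a contrast between differences that was not itself tested.

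**Figure D3:**
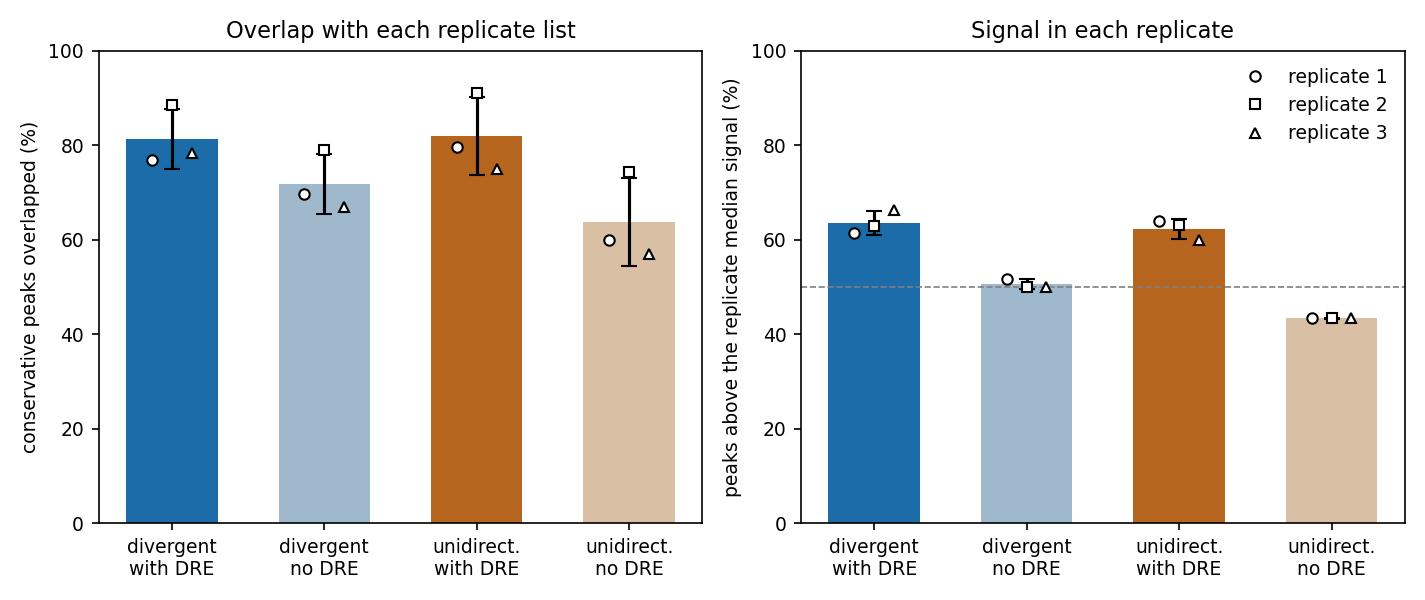
Share of conservative peaks overlapped by each replicate's thresholded list (left, percent) and share with a signal above the median of that replicate (right, percent, dashed line at 50), for peaks of 4 classes. Bars are means of 3 replicates, error bars SD, points the replicates. On the right, divergent peaks with a DRE lie at 61.4 to 66.2% and those without at 49.9 to 51.8%.

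The rule asked for starts on both strands but not for their order, so the name was checked. In 427 of 435 members (98.2%, interval 96.4 to 99.1%) the minus-strand start lay to the left of the plus-strand start, head to head. In the other 8 the starts had passed each other, so that the genes overlap. The gap between the starts had a median of 262 bp, with quartiles of 113.5 and 366.5 bp. It was at most 100 bp in 89 of the head-to-head members, over 100 and up to 300 bp in 164, and wider in 174. The summit lay between the starts in 305 members (70.1%, 65.7 to 74.2%) and the nearest DRE in 342 (78.6%, 74.5 to 82.2%).

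The positions of element and summit are given relative to the start nearest the element, a choice that by itself places the element close to that start. The centre of the nearest DRE lay at a median of -24.5 bp from the coding start nearest to it (negative is upstream), with quartiles of -44.5 and -5.5 bp. It was upstream of that start in 344 members (79.1%, interval 75 to 82.6%), and 0 to 60 bp upstream in 282 (64.8%). The summit lay at a median of -59 bp from the same start, with quartiles of -128 and -3.5 bp. At unidirectional peaks with a DRE the medians were -38.5 bp for the element and -38 bp for the summit. These medians are a description, since the rule also required a second start within 500 bp of each member's summit.

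**Figure D4:**
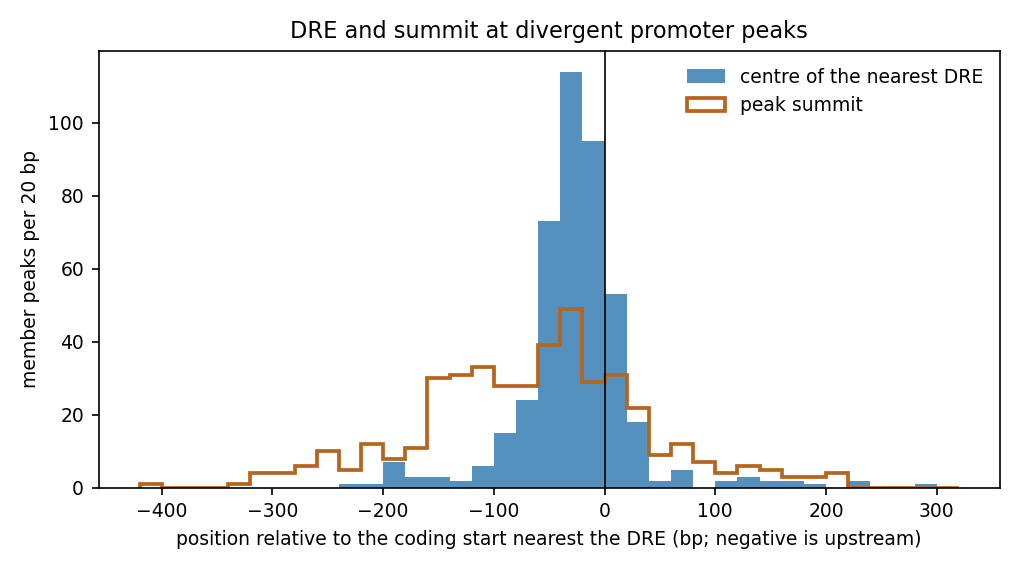
Positions of the nearest DRE (filled) and of the peak summit (outline) in 435 members, relative to the coding start nearest the DRE (horizontal axis, bp, negative upstream), as members per 20 bp. The element gathers just upstream of the start, with a median of -24.5 bp, and the summits spread farther upstream, with a median of -59 bp.

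The distance between element and summit was larger in members. Its median was 59.5 bp in members, with quartiles of 28.5 and 125 bp, against 38.5 bp in unidirectional peaks with a DRE. The element lay within 50 bp of the summit in 181 of 435 members (41.6%, interval 37.1 to 46.3%), against 328 of 537 unidirectional peaks (61.1%, 56.9 to 65.1%), where 52.9% of all 1013 peaks with a DRE in range had it so close. The replicates' own summits, which lay close to those used in the rule, gave the same contrast. With the summit of the strongest overlapping peak in each replicate, the share was 47.3%, 49.4% and 46% in members, against 68.7%, 67.7% and 67.2% in unidirectional peaks, where both classes together had 59.3%, 59.6% and 57.5%. The difference was -20.3 ± 1.71 percentage points (SD, n = 3, exact two-sided sign-flip permutation p = 0.25, adjusted p = 0.35), and the members were lower in 3 of 3 replicates. Those summits lay a median of 21 to 27 bp from the conservative summit of members. The conservative list was made from the same samples, so the replicates' summits are no independent check. The rule limited this distance to 250 bp in both classes, and only members had to have starts on both strands near the summit. Members that share a region can also take the same replicate summit, which then counts for each.

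The side on which the summit lay is given as a description. The rule kept summits within 500 bp of both starts and the element often lay near one of them, so an even split is not the value to compare with. In 305 members (70.1%, interval 65.7 to 74.2%) the summit was on the side of the DRE that faces the midpoint between the starts. With the replicates' own summits this share was 74.6%, 71.4% and 76.0%, 74.0 ± 2.32% on average (SD, n = 3). With members ranked by signal and split into 4 groups of equal size, it was 82.6% (interval 74.4 to 88.5%) in the 109 strongest members, 75.9% and 68.8% in the middle groups and 53.2% (43.9 to 62.3%) in the 109 weakest. The summits of the 109 strongest lay a median of 37.5 bp from the midpoint, against 87.5 bp for their DREs. In the 109 weakest those medians were 138.5 and 108 bp.

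The 109 weakest members also differed in other ways. Their median distance between summit and DRE was 131.5 bp, against 58.5 bp in the 109 strongest. In the middle groups it was 49.5 and 44.5 bp, so it did not rise steadily as signal fell. Of the weakest, 72 of 109 members (66.1%, interval 56.8 to 74.3%) shared bases with a stronger conservative peak, against 6 of the 326 other members (1.84%). Weak members therefore often stand beside a stronger summit of the same promoter. Over all members, 132 shared a region with another member, 2 to a region. The part of these overlaps in the lower share among weak members was not tested.

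**Figure D5:**
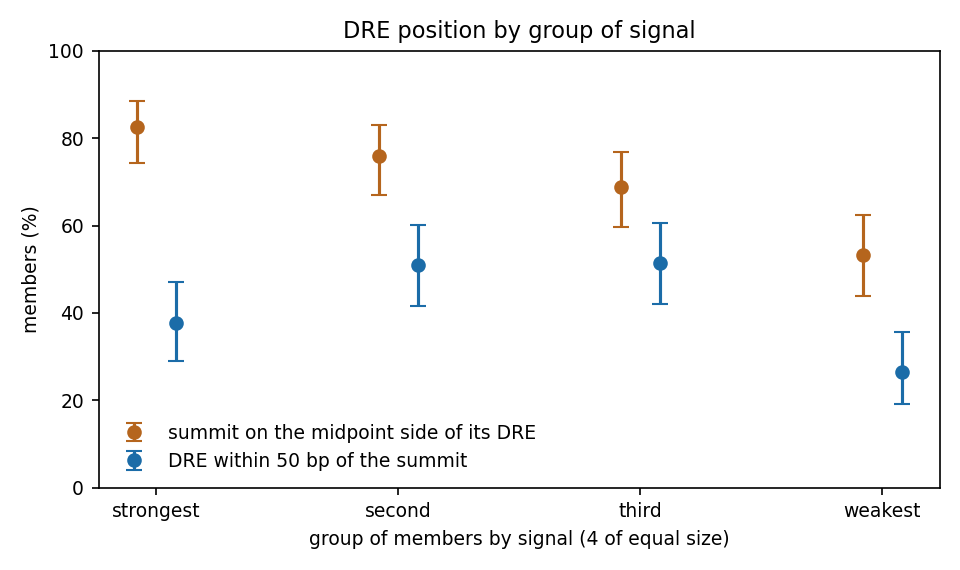
Share of members (vertical axis, percent) whose summit lies on the midpoint side of its DRE, and share with the DRE within 50 bp of the summit, for 4 groups of the 435 members by signal, strongest at the left. Bars are 95% Wilson intervals, which cover counting error only. The midpoint-side share is 82.6% in the strongest group and 53.2% in the weakest.

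Most members held a single element, and 53 of 435 (12.2%) held more. Of these, 4 had 3 copies within 250 bp of the summit. They were Cdc50/rngo, Klp67A/CG4452, Su(var)3-9/Set and wts/dj-1beta, with conservative signals of 656, 472, 351 and 293, and all 4 were overlapped in every replicate. Cdc50 is a partner of lipid flippases, rngo a ubiquitin-linked shuttle protein, Klp67A a mitotic kinesin, Su(var)3-9 a histone methyltransferase and wts a kinase of the Hippo pathway. The 3 copies of the strongest of them, Cdc50/rngo, show how far apart and how differently flanked copies in one promoter can be. The last copies stand in the 5′ untranslated region of rngo.
Cdc50/rngo, chrX:16441320-16441347: catcgatatgTATCGATAcctgcagtga
Cdc50/rngo, chrX:16441495-16441522: cccattcaacTATCGATAgtcagaccgc
Cdc50/rngo, chrX:16441519-16441546: ccgcgaatagTATCGATAaggcgtcgca
Cdc50/rngo had 129 in replicate 1, 301 in replicate 2 and 208 in replicate 3. Between neighbouring copies of a member the median spacing was 143 bp. Members with more than 1 copy had a median signal of 319 and lay above the list median in 46 of 53 cases (86.8%, interval 75.2 to 93.5%), against 212 and 234 of 382 (61.3%, 56.3 to 66.0%) for members with 1 copy. All 3 replicates overlapped 43 of the 53 (81.1%, 68.6 to 89.4%) and 248 of the 382 (64.9%, 60.01 to 69.5%). Seen from the annotation, 49 of 56 divergent pairs with more than 1 copy had a conservative peak (87.5%, 76.4 to 93.8%), against 290 of 361 with 1 copy (80.3%, 75.9 to 84.1%). The intervals of signal did not overlap between copy numbers, and those of recurrence and of annotated pairs did. Copies were counted around each summit, so a weaker summit of a promoter with more copies can count as 1 copy. Of the 109 weakest members 3.67% held more than 1 copy, against 16.5% of the 109 strongest. Among the weakest, 66.1% shared bases with a stronger conservative peak. The part of such summits in the difference by copy number was not tested.

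Other promoter motifs were sought on both strands, with copies of the DRE masked, within 250 bases on each side of the summit. For scale, the same window was searched around all 19252 coding start positions, of which 8.48% held a DRE. Motif 1 (GGTCACACT) was in 8.74% of members, 12.7% of divergent peaks without a DRE and 5.60% of starts. The core of Motif 7 (CATCNCTA) was in 25.5% of members, 29.7% of divergent peaks without a DRE, 19.0% of unidirectional peaks with one and 6.97% of starts. The T-box core (GGTGTGA), the sequence class that Doc3's own family binds, was in 25 of 435 members (5.75%, interval 3.92 to 8.35%), 5.82% of divergent peaks without a DRE and 4.42% of starts. Its share in members and in starts could not be told apart at this number of peaks.

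A further CGATA, the letters that end the element, stood outside the DRE in 85.3% of members, 90.0% of divergent peaks without a DRE and 57.0% of starts. The core of Motif 6 (GTATNTTT) was in 22.5% of members and 19.3% of starts, the E-box CAGCTG in 31% and 26.1%, the TATA box (TATAAA) in 58.2% and 52.1%, the initiator letters TCAGT in 55.4% and 66.6%, and the GAGA letters GAGAG in 34.0% and 46.8%. Apart from the element that the rule required, no motif searched gave members an interval clear of both other classes. A match of letters is a description and does not show binding.

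A total of 758 coding genes had a start within 500 bp of a member summit, 5.44% of 13945, and 412 of the 435 members had exactly 2 such genes. How many genes of each functional list had a member is given next. Among 45 genes of replication origins, helicase and fork, the class in which the element was first described, 8 had a member (17.8%, against the 5.44% of all coding genes). Psf1, a subunit of the GINS complex of the replicative helicase, had 95.3, 192 and 153 in replicates 1, 2 and 3, DNAlig1, the DNA ligase of lagging strands, had 61.0, 91.6 and 112, Orc5 of the origin recognition complex had 77.6, 120.2 and 76.2, and PolA2 of DNA polymerase alpha had 43.7, 103 and 57.8. All 4 were overlapped in each replicate, whereas PolE2, with 19.9, 45.8 and 5.96, was overlapped in none.

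Of 21 genes for DREF, insulator and core promoter factors, 4 had a member (19.0%). Besides Adf1, these were Ibf1 and Ibf2, which encode insulator binding factors and share a promoter with 66.5, 86.1 and 80.7, and Cp190, an insulator cofactor, with 39.4, 45.4 and 85.0. The gene for DREF itself was not among them. Of 32 proteasome genes 6 had a member (18.8%). Prosbeta2, a catalytic subunit, shared its promoter with mRpL39 at 144, 252 and 278, while Prosbeta1 had 77.5, 89.8 and 122, and the ATPases Rpt3 and Rpt5 had 50.7, 104 and 87.9 and 32.1, 80.6 and 74.1.

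Of 67 genes for Mediator and general transcription 7 had a member (10.4%). Besides MED7, the highest were EloB, a subunit of Elongin, with 125, 260.3 and 215, MED28 with 88.6, 198 and 151, and Taf7 of TFIID with 95.6, 164 and 144. Cytosolic ribosome genes had a member in 12 of 85 cases (14.1%), among them RpS13 with 68.1, 215 and 208 and RpS25 with 64.6, 164 and 155. Mitochondrial ribosome genes had one in 7 of 73 (9.59%), led by mRpL39 and by mRpL32 with 79.6, 168 and 133. Genes of both ribosomes are needed in every growing cell.

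Of 90 genes of the respiratory chain and ATP synthase 10 had a member (11.1%), led by levy, a cytochrome oxidase subunit, with 131, 231 and 261, and by ND-SGDH of complex I with 83.4, 233 and 172. Aminoacyl-tRNA synthetases had a member in 5 of 33 cases (15.2%), led by TrpRS with 116, 257 and 220.3. Of 67 genes of vesicle tethering and sorting 11 had one (16.4%), among them Vps36 with 171, 288 and 279.8, Snapin with 121, 265 and 269, and Syx5, a SNARE of the Golgi, with 119, 280.2 and 217. TrpRS and Vps16A share a promoter, as do mRpL39 and Prosbeta2, so a single peak counts for genes of both lists. Each of these 9 lists had a higher share than all coding genes, which is given as a description, since the lists were chosen with earlier results known.

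No T-box gene (0 of 8), Doc3 included, and no gene of the list of heart and dorsal mesoderm regulators (0 of 28) had a start within 500 bp of a member, where 5.44% of all coding genes did. At that share lists of this size would hold few such genes, so the zeros do not set them apart. Those lists share 5 genes and hold the processes for which Doc3 is known. The absence concerns divergent promoters with an exact element in the conservative list and says nothing of peaks elsewhere at these genes.

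Members lay on 5 chromosome arms and none on chromosome 4. X held 103 (23.7% of members, against 19.6% of the list), 3R held 100 (23.0%, against 22.8%), 2L held 86 (19.8%, against 18.2%), 2R held 74 (17.0%, against 19.7%) and 3L held 72 (16.6%, against 19.1%). Of annotated divergent pairs with a DRE, 21.6% were on X. Members on X had the lowest median signal, 179, and those on 3R the highest, 268.

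The values at the limits of the rule are given as a description. Just inside the limit of 500 bp were rtv/Dlic, with the farther start 494 bp from the summit and a signal of 260.0, and CG9150/Pfdn1 at 488 bp with 351. Just outside were l(2)k09848/CG7849 at 504 bp with 274 and EMC7/CG8399 at 511 bp with 116. Inside the limit of 250 bp for the element were DnaJ-1/Usp47 at 247.5 bp with 95.2 and Hmt4-20/SkpA at 243.5 bp with 109. Outside it were peaks at Rop/Ras64B at 251.5 bp with 81.4 and at CG15443/Paris at 253.5 bp with 22.1. Both of these promoters also hold a member peak. That of Rop/Ras64B has the DRE at 5.5 bp and a signal of 92.4, and that of CG15443/Paris has it at 54.5 bp and 112. Both members named inside the limit of the element's distance were weaker than the median member. Hmt4-20/SkpA holds a stronger member peak in the same region, with a signal of 296 and its DRE 36.5 bp from the summit. A relation between the element's distance and signal was not tested here.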

How the data were processed

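The files used were the authors' peak lists on dm6, per the labels, 1 ranked and 1 thresholded list for each of 3 replicates and 4 thresholded lists of the whole series. The authors' signal value per region is their peak caller's strength on an unstated scale. It served only to rank peaks of 1 list. The deposited score is a scaled irreproducible discovery rate (lowest 830), used only for a stricter list. Aligner, peak caller and the pooling behind series-level lists: not given in the sources used here. Sequencing depth is unknown.

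Summits, coding starts (Ensembl release 115, same assembly as dm6) and exact TATCGATA copies in the RefSeq genome of that assembly were joined with scipy 1.17.1, pandas 2.3.3, numpy 2.4.6 and Python 3.11.15, on X, 2L, 2R, 3L, 3R and 4. An overlap meant 1 bp or more in common. For signal in a replicate, the largest value among ranked regions that overlap the peak was taken, which may belong to a neighbouring summit. Peaks are not replicates: classes were compared within each replicate by the exact two-sided sign-flip permutation test, with Benjamini-Hochberg adjustment over 7 comparisons. The annotated-promoter comparisons and the comparison of replicate summits were added after the data were seen. The labels call the replicates biological and do not say whether they came from separate collections, so p-values concern only these 3 replicates. Where all 3 differences agree in direction, the sign-flip permutation p is 0.25 whatever their spread. Wilson 95% intervals are descriptions that cover counting error only and take peaks as independent. The classing, overlap and permutation code was tested on simulated data.

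Genes named are those of the 15 strongest member regions, the 5 members with the most copies, the 3 strongest in no replicate, those at the rule's limits, and up to 4 genes per list by signal; PolE2 was chosen after its values were seen, and some genes under the rule are not reported here. Sequences were taken from the strongest members; the intervals between starts and the pairs without a peak were added after values were seen, and windows holding coding exons were left out of the windows around summits. Members and lists were chosen with earlier results of these data known. Alternatives covered distances, element spelling, summit, gene types, merging, peak list, score, overlap rule and leaving out replicates.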

Additional observations from a re-analysis of the deposited data

How the results depend on the processing

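The direction of the difference between members and divergent peaks without a DRE held in each alternative run, in recurrence (10) and in signal (8), and so did that of the annotated pairs (4, with 33.5 points when the summit had to lie within 100 bp of the midpoint). With starts within 250 bp there were 277 members, 75.1% of them above the list median, 74.0% had the DRE between the starts, and recurrence exceeded that of unidirectional DRE peaks by 2.40 points. With the 7-base core TATCGAT there were 742 members. Their differences from divergent peaks without that core were 14.5 points in recurrence and 18.0 points in signal. With the DRE within 100 bp, 72.8% of members lay above the list median. With the strongest peak of each region, that recurrence difference was 0.96 points and 47.6% of members had the DRE within 50 bp. In the other series-level lists, 73.6% (list of 3513 peaks) and 58.3% (2301 peaks) lay above the list median, and 71.4% of members were overlapped in all 3 replicates in both the list of 2456 and that of 2301. With scores of 1000 only, 72.2% were overlapped in all 3 and 58.8% lay above the median. The overlap rule moved the share in all 3 most, to 37.2% when 50% of both peaks had to overlap and to 55.2% when the summit had to lie in the replicate peak. Leaving out 1 replicate gave 69.2 to 74.5%, and the difference from unidirectional DRE peaks ran from -2.74 (without replicate 3) to 0.39 points (without replicate 1) in recurrence and from -1.32 (without replicate 3) to 3.05 points (without replicate 1) in signal. Fewer lists to match raise the share by construction, and the cause of the other shifts was not tested. Unknown depth limits what the lists show: a promoter without a listed peak is not shown to be unbound.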
